A study of Mus musculus with 15 samples.

Results

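The genes described here are 102 liver genes of ovariectomized mice whose mean level was more than 1 log2 unit (2-fold) above vehicle in both groups that received bazedoxifene, given alone (BZA) or with conjugated estrogens (CE+BZA), and at most 1 above vehicle with estradiol (E2) or conjugated estrogens (CE) alone. They are 102 of the 2545 genes of the deposited table, or 4.01%. The genes were chosen by these measured group means, so their differences from vehicle are a description and were not tested. A further 10 genes met the same thresholds and were left out by name, through a list of 28 name prefixes, such as those of solute carriers and chemokines, and 7 single names.

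RNA-seq of whole liver was available for 15 female C57BL/6 mice, named as C57BL/6J in the methods of the study, 3 in each of 5 groups, each value from a single mouse. All mice were fed a diet with 45% of calories from fat from 8 weeks of age, were ovariectomized at 10 weeks, and were treated for 6 weeks, so that vehicle (Veh) stands for estrogen loss on a fat-rich diet rather than for an untreated animal. E2 was given at 5 µg per kg per day, CE at 2.5 mg per kg per day and BZA at 3 mg per kg per day, and the doses within the CE+BZA combination are not restated in the study. The route differed between groups, since CE was loaded into osmotic minipumps while pellets that release their content slowly supplied E2, and the methods describe no route for the other groups separately. No sham-operated liver was analysed here. The mice keep their label numbers below. Each deposited value is on a log2 scale centred, gene by gene, on the middle of the 15 mice, so values compare mice within a gene and not one gene with another.

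Bazedoxifene is a selective estrogen receptor modulator, a ligand that occupies the estrogen receptor and acts as an agonist in some tissues and as an antagonist in others. In the liver, estrogen receptor alpha is the main form, and its ligands are known to alter lipid, bile acid and clotting factor genes. Conjugated estrogens are a mixture of estrogens, and their pairing with bazedoxifene is used in menopausal therapy to keep estrogen action in bone while opposing it in uterus and breast.

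The differences below all share the Veh mean that the thresholds used, and a low Veh mean raises each of them. The E2 and CE differences of the 102 genes are therefore a description, and no response to estrogens is read from them. The median difference from Veh over the 102 genes was 1.29 in BZA and 1.31 in CE+BZA (log2), and it was 0.43 with E2 and 0.44 with CE. Over all 2545 genes the medians were 0.11 for BZA, 0.079 for CE+BZA, 0 for E2 and 0.055 for CE. The E2 mean was above Veh in 82 of the 102 genes and in 48.6% of the table, and by more than 0.5 in 46 of the 102. The CE mean was above Veh in 80 of the 102 genes and in 52.5% of the table, and by more than 0.5 in 44 of the 102. The share past 0.5 was not counted over the table. The CE mean minus the Veh mean was lowest in Cml5, at -2.03, and the E2 mean minus the Veh mean was lowest in AC152063.2 and Xlr4b, at -1.16 and -1.14.

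**Figure D1:**
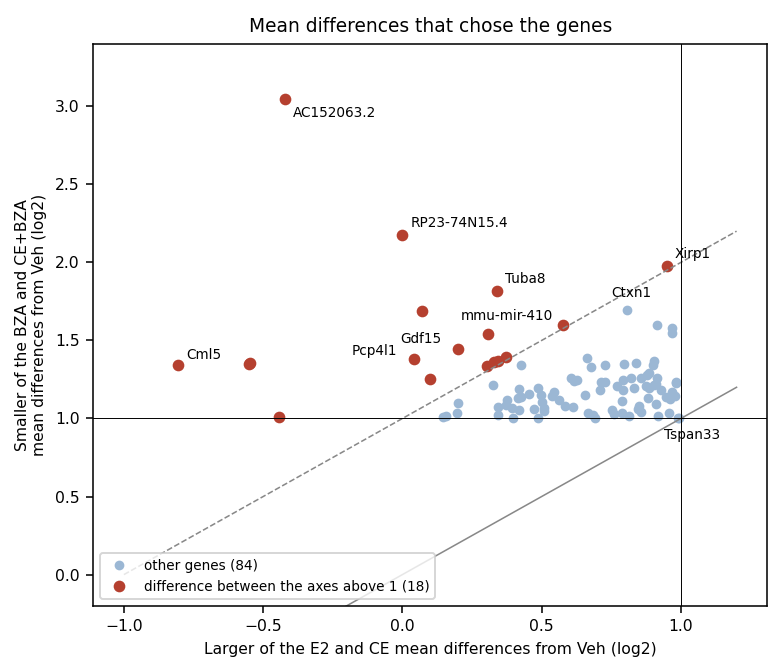
Each point is 1 of the 102 genes, with the larger of its E2 and CE mean differences from Veh on the horizontal axis and the smaller of its BZA and CE+BZA differences on the vertical axis (log2). The thresholds that chose the genes are the thin black lines, the solid grey line marks equality and the dashed line marks a difference of 1, above which 18 genes lie in red. Most genes crowd near the corner where the thresholds meet, and none lies below the line of equality.

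Set directly against the estrogen groups, both bazedoxifene means lay more than 1 above both the E2 and the CE mean in 18 of the 102 genes, and 1.73% of the table did so. These are AC152063.2, AC152063.3, mmu-mir-410, RP23-74N15.4, Tuba8, Xirp1, Lad1, Pcp4l1, Dusp14, Gdf9, Gdf15, Vsig10l, Ctrl, Extl1, Cml5, Ccdc37, Fam184a and Xlr4b. In 43 of the 102 genes the smallest of the direct differences was under 0.5, and its median over the genes was 0.57. Neither figure was computed over the table. The 3 genes nearest the threshold inside it were Dnm1, with BZA 1.0021 above Veh, Serpine2, with CE+BZA 1.0022 above, and Tspan33, with BZA 1.0025 above. Just outside lay Atp4a and Shb, whose E2 means were 1.0002 and 1.0016 above Veh, and Hspa1a, whose CE+BZA mean was 0.996 above.

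**Figure D2:**
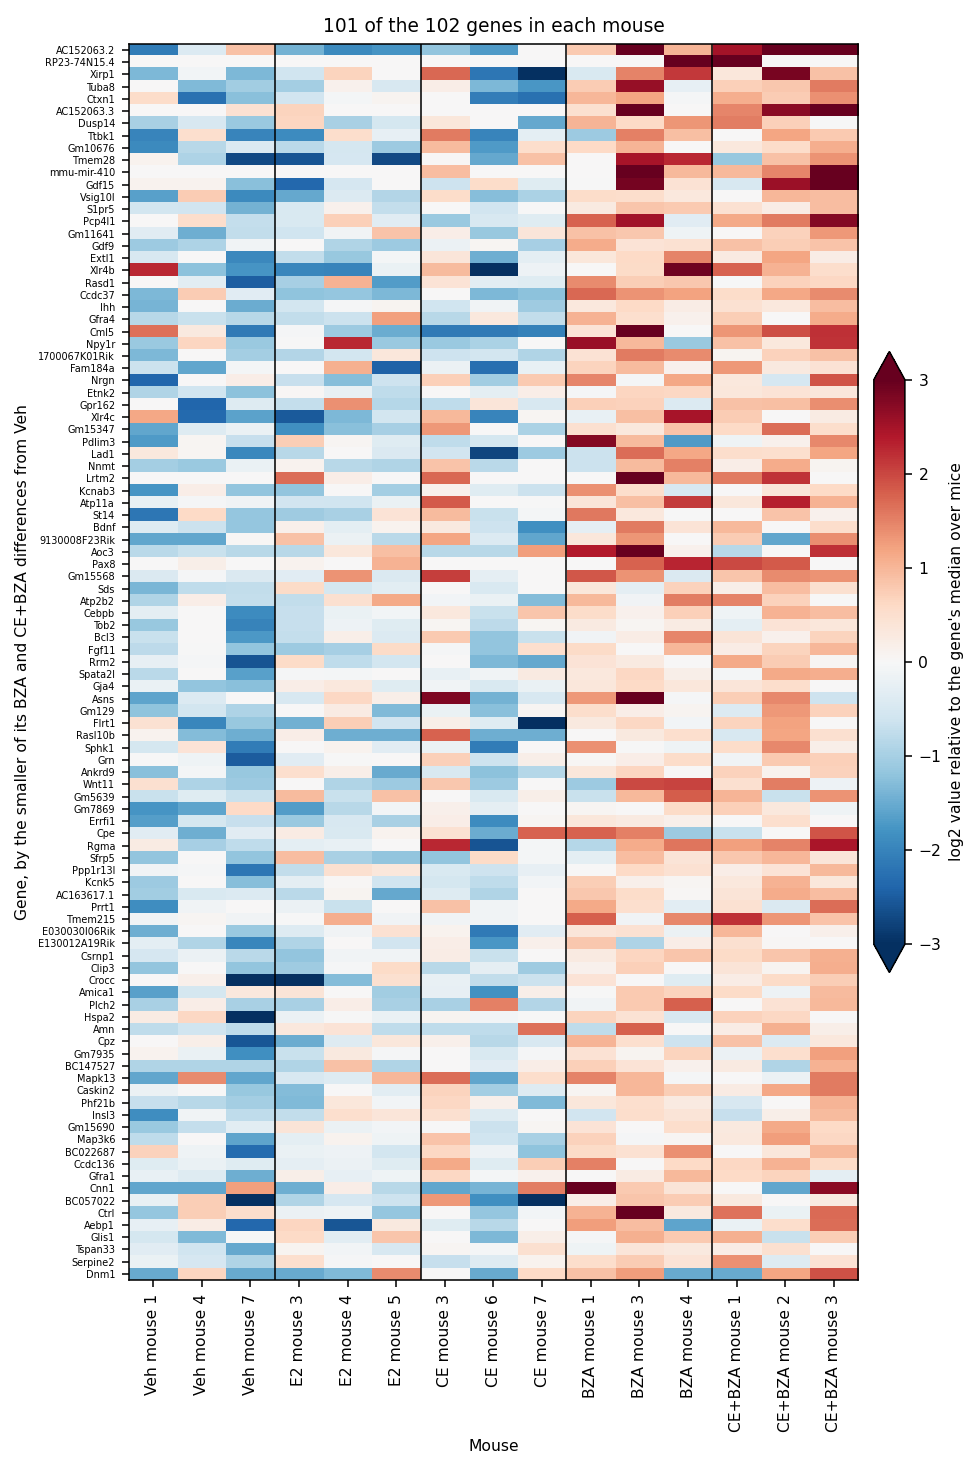
Each row is 1 of 101 of the 102 genes, ordered by the smaller of its BZA and CE+BZA differences from Veh, and each column is 1 mouse, with black lines between the groups. Colour gives the log2 value relative to the median of the gene over mice and saturates at 3 and -3. The 6 columns of the BZA and CE+BZA mice are mostly red and the 3 Veh columns mostly blue, as the thresholds favour. The E2 and CE columns vary from mouse to mouse. Over the 102 genes, the median minus the Veh mean was lower in CE mouse 6 and E2 mouse 3 than in Veh mouse 4.

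In 5 of the 102 genes every one of the 6 mice given bazedoxifene lay above every one of the other 9, against 8 genes or 0.314% of the table. They were S1pr5, Gdf9, Ihh, Kcnk5 and Csrnp1. In 32 of the 102 genes the 6 mice lay above all 3 Veh mice, against 5.42% of the table, and the same contrasts chose the genes, so nothing is read from these shares. In the other direction, 53 of the 102 genes had at most 2 of the 6 mice above all 9 others, and 7 had none. These counts were not made over the table, so whether such overlap is usual there is not known.

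S1pr5 encodes a receptor for sphingosine 1-phosphate, the signaling lipid that sphingosine kinase makes. Its log2 values were -0.56, -0.58 and -1.42 in Veh mice 1, 4 and 7, -0.45, 0.12 and -0.71 in E2 mice 3, 4 and 5, and 0, -0.57 and -0.012 in CE mice 3, 6 and 7. In BZA mice 1, 3 and 4 they were 0.27, 0.84 and 0.79, and in CE+BZA mice 1, 2 and 3 they were 0.46, 0.22 and 0.93. The lowest bazedoxifene-treated mouse thus lay 0.094 above the highest other mouse, which was E2 mouse 4. The mean difference from Veh was 1.49 in BZA and 1.39 in CE+BZA. S1pr5 also met the thresholds after any 1 of the 15 mice was left out, as did Gdf9, Tuba8, AC152063.2 and 1700067K01Rik, and these 5 were the only genes to do so.

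Gdf9 encodes an oocyte-secreted ligand of the TGF-beta family and is best known from the ovary, which these mice lacked. Its values were -1.10, -0.92 and -0.11 in Veh, 0, -0.91 and -1.10 in E2 and -0.17, 0.067 and -0.99 in CE, in the same mouse order. They were 1.11, 0.41 and 0.45 in the BZA mice and 0.89, 0.74 and 0.86 in the CE+BZA mice. The gap between the 2 sets of mice, 0.34, was the widest of the 102 genes, and its 3 CE+BZA values lay within an SD of 0.075 (n = 3). Veh mouse 1 and E2 mouse 5 shared the bottom value.

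Ihh encodes Indian hedgehog, a secreted hedgehog ligand, and Veh mice 1 and 7 were its lowest mice at -1.41 and -1.5, while Veh mouse 4 was at 0. The E2 and CE mice ranged from -1.07 to 0.089, and the 6 mice given bazedoxifene ranged from 0.23 to 0.93. Kcnk5, a 2-pore potassium channel that is a member of the ion channel list, ranged from -1.28 to 0.036 in the 9 mice without bazedoxifene and from 0.065 to 1.05 in the other 6. Csrnp1, a nuclear transcriptional regulator known for its induction by axin, ranged from -1.19 to 0.23 and from 0.26 to 1.06. In Kcnk5 and Csrnp1 the 2 ranges were separated by 0.029 and 0.026, far less than the median SD between mice of a group over the 102 genes, which was 0.78.

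**Figure D3:**
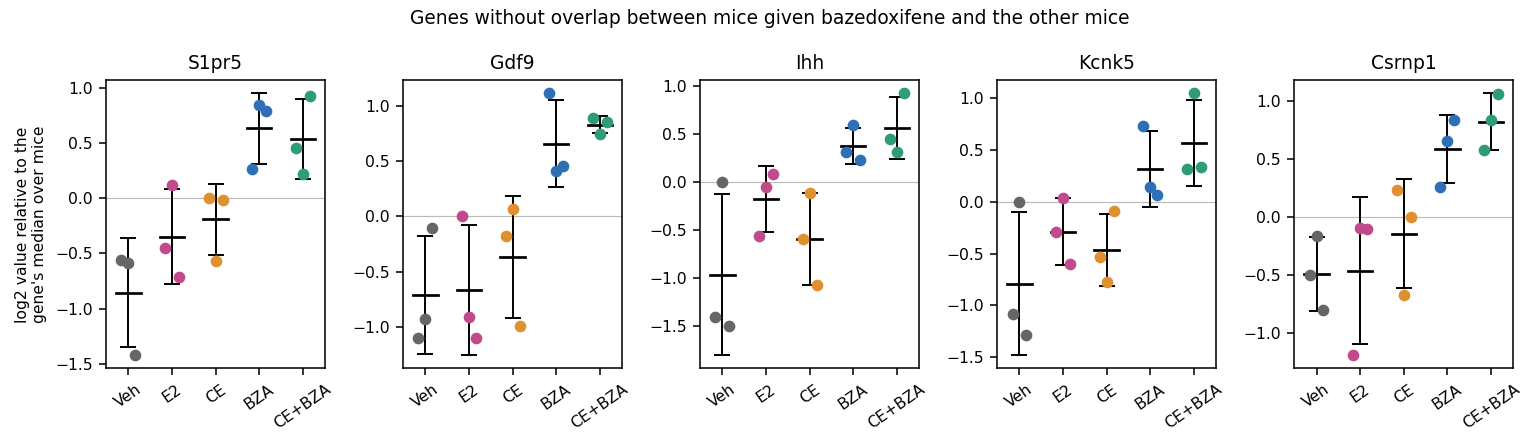
Points are single mice, horizontal bars are group means and error bars are SD (n = 3) of the log2 value relative to the median of the gene over mice, for S1pr5, Gdf9, Ihh, Kcnk5 and Csrnp1. In each panel the 6 BZA and CE+BZA points lie above the 9 others, with the widest gap, 0.34, in Gdf9.

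The bases just before the transcription start of these genes are shown so that the elements discussed below can be seen in them. RefSeq start sites of the GRCm38.p6 build were found for S1pr5, Ihh, Kcnk5 and Csrnp1, and the first one listed was taken. Each line gives 150 bases that end 1 base before the start, 5′ to 3′ on the strand of the gene, which is the minus strand in each case. The intervals are chr9:21248444-21248593 for S1pr5, chr1:74951673-74951822 for Ihh, chr14:20181783-20181932 for Kcnk5 and chr9:119984743-119984892 for Csrnp1. Capitals mark GC boxes (GGGCGG on either strand) in the first 3 and an AGGTCA estrogen element (that hexamer on either strand) in Csrnp1. Csrnp1 has 3 further RefSeq starts, and the windows before them, not printed, held no searched element, 5 GC boxes with 1 GCGTG, and 2 AP-1 sites.
S1pr5: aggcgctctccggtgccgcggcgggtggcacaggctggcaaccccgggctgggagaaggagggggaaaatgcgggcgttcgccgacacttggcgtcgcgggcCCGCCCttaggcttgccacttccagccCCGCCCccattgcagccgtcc
Ihh: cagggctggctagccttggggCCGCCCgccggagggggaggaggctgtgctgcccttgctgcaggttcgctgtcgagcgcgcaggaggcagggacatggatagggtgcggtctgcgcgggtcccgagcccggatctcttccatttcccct
Kcnk5: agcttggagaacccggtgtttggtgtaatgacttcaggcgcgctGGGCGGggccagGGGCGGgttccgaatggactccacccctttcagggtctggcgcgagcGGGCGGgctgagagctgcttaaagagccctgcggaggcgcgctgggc
Csrnp1: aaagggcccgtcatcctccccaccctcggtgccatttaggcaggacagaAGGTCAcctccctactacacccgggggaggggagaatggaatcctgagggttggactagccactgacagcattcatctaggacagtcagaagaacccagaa

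Letters of known elements were counted in the 250 bases before the first listed start, on both strands, for the 70 of the 102 genes that matched a RefSeq promoter. The full estrogen response element, a palindrome, was found in 0 of the 70, in 0% of the 1537 promoters of table genes and in 0.0629% of all 27025 promoters. The single estrogen arm AGGTCA, which overlaps that element, was in 5 of the 70 (7.14%) and in 15.1% of the table promoters. The GC box GGGCGG was in 39 (55.7%), against 42.2% of the table promoters and 32.9% of all promoters. The TATA box TATAAA was in 3 (4.29% against 10.7% of the table), CCAAT in 21 (30.0% against 35.1%) and the AP-1 site TGACTCA in 1 (1.43% against 5.34%). The cyclic AMP element TGACGTCA was in 1 (1.43% against 1.95%), the E-box CACGTG in 3 (4.29% against 5.79%), GCGTG, the core that the dioxin receptor binds, in 20 (28.6% against 34.0%), and TGATGNAA, a motif of amino acid response elements, in 3 (4.29% against 3.38%). Such matches describe letters in these windows and name no bound factor.

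Of the 102 genes, AC152063.2 had the largest difference when the smaller of BZA and CE+BZA minus Veh is taken, and AC152063.3 and the microRNA gene mmu-mir-410 accompany it. AC152063.2 was 3.04 above Veh in BZA and 4.40 above in CE+BZA, AC152063.3 was 1.69 and 3.2 above, and mmu-mir-410 was 1.54 and 2.10 above. The 3 names stand next to each other in the deposited table and followed each other across the 15 mice with Pearson r of 0.89 to 0.95, given as a description over mice that share the libraries. AC152063.2 and AC152063.3 were matched to no annotated gene, so no position is given for them. mmu-mir-410 is Mir410 at chr12:109743715-109743795 on the plus strand of GRCm38, within the imprinted Dlk1-Dio3 region, where maternally expressed transcripts carry a large group of microRNAs. The library captured polyadenylated RNA, so the value stands for reads over the hairpin gene and not for the mature microRNA.

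The mature forms made from the hairpin are shown because their seeds, bases 2 to 8 in capitals, are what would pair with targets. RefSeq lists 2 of them, at chr12:109743729-109743749 and chr12:109743764-109743784.
mmu-miR-410-5p: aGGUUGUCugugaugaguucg
mmu-miR-410-3p: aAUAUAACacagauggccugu
The seed of the 5p form is shared with mmu-miR-494-5p and that of the 3p form with mmu-miR-344d-3p and mmu-miR-344e-3p.

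The level of these RNAs differed widely within the groups. AC152063.2 was -2.11, -0.40 and 0.89 in Veh, -1.42, -1.91 and -1.77 in E2 and -1.18, -1.70 and 0 in CE. It was 0.78, 5.70 and 1.03 in the BZA mice and 2.5, 3.28 and 5.79 in the CE+BZA mice. BZA mouse 3 and CE+BZA mouse 3 stood far above the rest, and BZA mouse 1 lay below Veh mouse 7. For mmu-mir-410 all 3 Veh and all 3 E2 mice were at the lowest value, the CE mice were at 0.92, 0 and 0, the BZA mice at 0, 3.66 and 0.97 and the CE+BZA mice at 0.98, 1.47 and 3.86. In AC152063.3 the highest mice were again BZA mouse 3 and CE+BZA mouse 3, at 5.07 and 5.90. Without BZA mouse 3 the BZA differences from Veh were 1.45 for AC152063.2, 0.081 for AC152063.3 and 0.48 for mmu-mir-410, so the last 2 no longer met the thresholds.

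**Figure D4:**
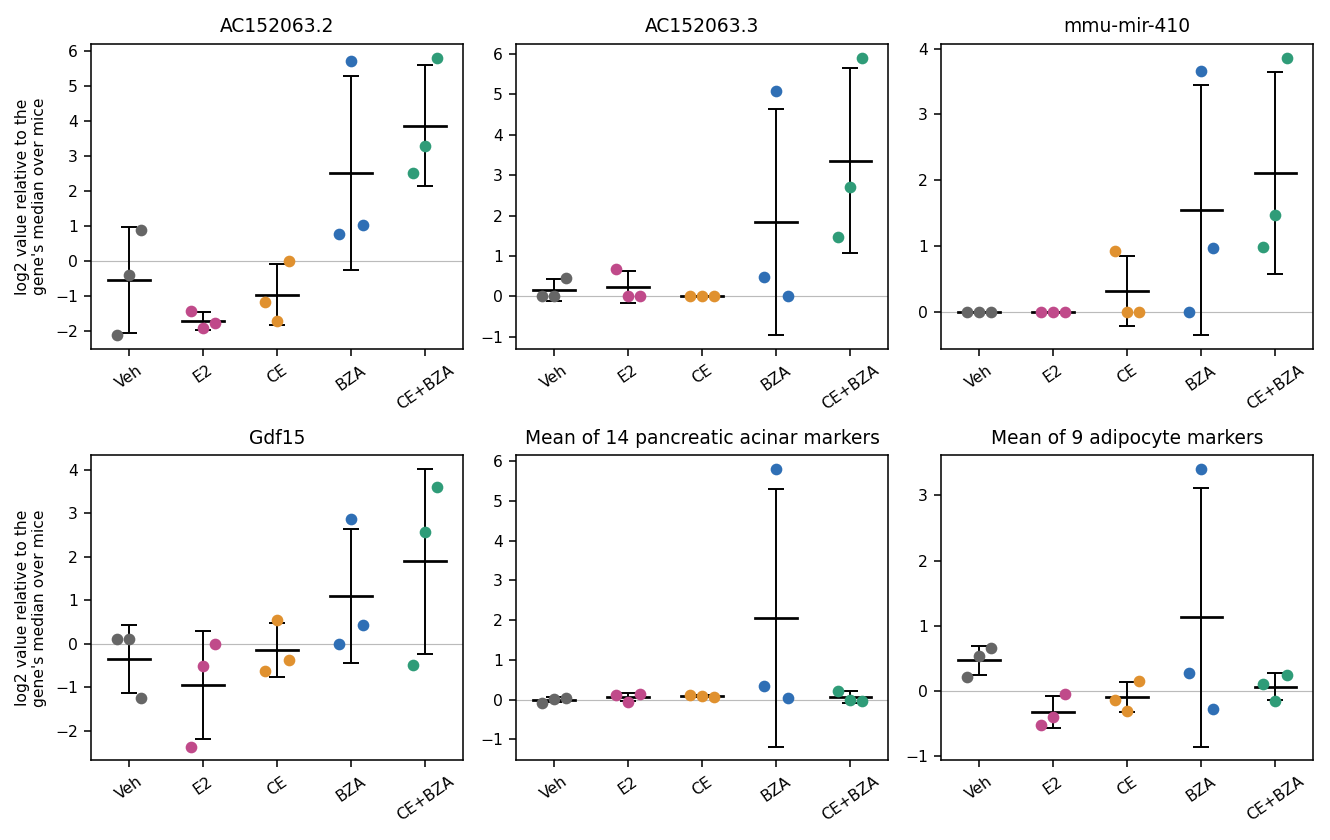
Points are single mice, horizontal bars are group means and error bars are SD (n = 3) of the log2 value relative to the median over mice, for AC152063.2, AC152063.3, mmu-mir-410 and Gdf15, and for the mean of the pancreatic acinar and of the adipocyte markers. One BZA mouse, number 3, is the highest BZA point in all 6 panels, and the acinar mean of 5.80 in that mouse has no counterpart in the other 14.

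BZA mouse 3 also held transcripts of other tissues. All 14 pancreatic acinar markers in the table, such as Pnlip and Amy2a5, which encode digestive enzymes, were highest in that mouse, with a mean level of 5.80 against -0.081 to 0.33 in the other 14 mice, and 13 of the 14 were at their lowest value in at least 10 mice. The mean of the 9 adipocyte markers in the table was 3.4 in that mouse and -0.52 to 0.65 in the others, and Adipoq, Lep and Plin1 were among the 5 markers highest there. Ctrb1, 1 of the acinar markers, was also high in BZA mouse 1, at 4.64, against 7.02 in BZA mouse 3. Ctrl, a chymotrypsin-like protease of the pancreas that is among the 102 genes, was at 4.71 in BZA mouse 3, at 1.05 and 0.30 in the other BZA mice and at 1.64, -0.20 and 1.70 in CE+BZA. Aoc3, an amine oxidase of the surface of fat and muscle cells, was at 4.53 in BZA mouse 3 and at 2.37 and 0.12 in the other BZA mice. Without this mouse 75 of the 102 genes still met the thresholds, the median BZA difference from Veh was 1.2, and the genes with both bazedoxifene means more than 1 above both estrogen means went from 18 to 10. BZA mouse 1 stood apart in another way, with the highest value of all 4 cholangiocyte markers in the table, Krt7, Krt19, Muc1 and Cldn7, at a mean of 2.34 against -1.80 to 0.41 in the other mice, and without it 82 of the 102 genes still met the thresholds. The part of these cells and tissues in the values of the 102 genes was not tested. In bulk liver, fewer cells of a type and less RNA per cell cannot be told apart.

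Among secreted signals and their modulators, 10 of the 102 genes, the BZA and CE+BZA medians were 1.24 and 1.43 above Veh. They were Gdf15, Gdf9, Ihh, Bdnf, Wnt11, Insl3, Sfrp5, Grn, Rgma and Fgf11. Fgf11 is counted here by its family name and not as a known secreted protein. Gdf15, a stress-induced hormone that lowers food intake through the brainstem, was 0.098, 0.11 and -1.24 in Veh, -2.37, -0.51 and 0 in E2 and -0.62, 0.55 and -0.37 in CE. It was -0.0079, 2.87 and 0.44 in the BZA mice and -0.48, 2.56 and 3.60 in the CE+BZA mice, so that 3 of the 6 mice were high and the other 3 lay within the range of the 9 mice without bazedoxifene. Its BZA difference from Veh was 1.44 with and 0.56 without BZA mouse 3. Wnt11, a Wnt ligand, was at the lowest value in BZA mouse 1 and at 1.99 and 2.04 in BZA mice 3 and 4, and Sfrp5, a secreted Wnt antagonist, was 1.12 and 1.5 above Veh in BZA and CE+BZA. Bdnf, a neurotrophin, was 1.29 and 1.23 above Veh, and all 6 mice lay above the 3 Veh mice.

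Receptors and cell surface proteins contributed 14 genes, which were S1pr5, Gfra1, Gfra4, Npy1r, Gpr162, Amica1, Tspan33, Flrt1, Amn, Lrtm2, Vsig10l, Tmem28, Tmem215 and Prrt1. Gfra4, a co-receptor of GDNF family ligands, was -0.84, -0.67 and -0.84 in Veh and 1.05, 0.51, 0.12, 0.73, 0 and 1.11 in the 6 mice given bazedoxifene. E2 mouse 5, at 1.23, was higher than all of them. Tmem28 was 2.75 above Veh in BZA and 1.54 above in CE+BZA, with CE+BZA mouse 1 at -1.13, below Veh mice 1 and 4. Sphk1, the kinase that makes sphingosine 1-phosphate and hence the ligand of S1pr5, was 1.15 above Veh in BZA and 1.46 above in CE+BZA, with Veh mouse 7 at its lowest value and with Veh mouse 4 above 3 of the 6 mice given bazedoxifene.

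Transcription and chromatin regulators contributed 11 genes, among them Cebpb, Bcl3, Pax8, Glis1, Phf21b, Csrnp1, Tob2, Gm129, Ppp1r13l and E130012A19Rik, with medians of 1.22 above Veh in BZA and 1.23 in CE+BZA. Cebpb, a liver transcription factor of stress and acute phase responses, was 1.2 and 1.34 above Veh in BZA and CE+BZA and 0.89 above in CE, with Veh mouse 7 at -1.89. Gm129 is the older name of Ciart, a repressor in the circadian clock, and it was 1.17 and 1.43 above Veh, with all 6 mice above the 3 Veh mice.

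Intracellular signaling proteins were 9 of the genes, Dusp14, Ttbk1, Rasd1, Rasl10b, Errfi1, Mapk13, Map3k6, Plch2 and Sphk1. Dusp14, a phosphatase of MAP kinases, was -0.98, -0.48 and -1.12 in Veh, 1.03, 0.60 and 1.32 in the BZA mice and 1.54, 0.71 and -0.019 in the CE+BZA mice. All 6 mice lay above Veh, and E2 mouse 3 at 0.65 overlapped with them. Errfi1, a feedback inhibitor of the EGF receptor, was 1.21 and 1.13 above Veh in BZA and CE+BZA. Rasd1, a small GTPase named for its induction by dexamethasone, was 1.92 and 1.35 above Veh, and E2 mouse 4, at 1.04, exceeded 5 of the 6 mice given bazedoxifene.

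Cytoskeletal, junction and vesicle proteins were 10 genes, Xirp1, Tuba8, Pdlim3, Cnn1, Crocc, Clip3, Lad1, Caskin2, Dnm1 and Gja4. Tuba8, an alpha-tubulin, was 0, -1.33 and -1.04 in Veh, -1.01, 0.14 and -0.47 in E2 and 0.19, -1.34 and -1.74 in CE. It was 0.75, 2.60 and -0.26 in the BZA mice and 0.70, 0.81 and 1.57 in the CE+BZA mice, so that 5 of the 6 mice lay above all 9 others and BZA mouse 4 did not. Xirp1, an actin-binding repeat protein of striated muscle, was 1.98 and 2.28 above Veh in BZA and CE+BZA and spread from -3.23 in CE mouse 7 to 1.72 in CE mouse 3 within a single group. Xirp1 and Csrnp1 lie 29097 bases apart on chromosome 9, the latter at chr9:119971163-119984658. The neuronal proteins Ctxn1, Pcp4l1 and Nrgn, the last 2 with IQ motifs, were 1.69, 1.38 and 1.60 above Veh in BZA and 2.05, 1.88 and 1.29 above in CE+BZA.

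Metabolic enzymes and chaperones were 9 genes, Sds, Asns, Nnmt, Etnk2, Aoc3, Rrm2, Cml5, Hspa2 and Extl1. Asns, which makes asparagine, was 2.23 above Veh in BZA and 1.17 in CE+BZA, with its highest values in BZA mouse 3 (3.44) and CE mouse 3 (2.81). Sds, which converts serine to pyruvate, was 1.21 and 1.48 above Veh, and all 6 mice lay above the 3 Veh mice. Etnk2, an ethanolamine kinase of phospholipid synthesis, was 1.32 and 1.28 above Veh, against 0.60 in E2 and 0.88 in CE. Nnmt, which methylates nicotinamide, was 1.39 and 1.25 above. Cml5, the older name of Nat8f5, had the CE mean that lay furthest under Veh, with CE mice at -2.13, -2.13 and -2.02 and CE+BZA mice at 1.32, 1.92 and 2.18, but Veh mouse 1 was at 1.65 and BZA mouse 4 at 0.

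Channels and pumps were Kcnk5, Kcnab3, Atp2b2 and Atp11a, and proteases with their inhibitors were St14, Cpe, Cpz, Ctrl, Serpine2 and Aebp1. Their medians were 1.26 above Veh in BZA and 1.30 in CE+BZA for the former and 1.27 and 1.09 for the latter. Atp11a, a flippase for phospholipids at chr8:12757014-12868728, was 1.24 and 1.36 above Veh in BZA and CE+BZA, and Gm15347, antisense to its end at chr8:12860358-12877344, was 1.26 and 1.65 above. Sds at chr5:120476526-120483932 likewise contains the antisense Gm15690. Whether reads were counted by strand is not given in the sources used here, so the partners of each pair cannot be told apart. Xlr4b and Xlr4c, paralogs of an imprinted X-linked family 11235 bases apart, may share reads in the same way. Xlr4b was 1.41 and 1.36 above Veh in BZA and CE+BZA with Veh mouse 1 at 2.27, and Xlr4c was 1.97 and 1.26 above.

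The other 21 genes have no role that can be named with confidence or are predicted. They were RP23-74N15.4, Gm10676, Gm11641, Ccdc37, 1700067K01Rik, Fam184a, Gm15347, 9130008F23Rik, Gm15568, Spata2l, Ankrd9, Gm5639, Gm7869, AC163617.1, E030030I06Rik, Gm7935, BC147527, Gm15690, BC022687, Ccdc136 and BC057022. Their smaller differences from Veh ranged from 1.01 to 2.18. RP23-74N15.4, at the upper end, was at its lowest value in 13 of the 15 mice and at 6.53 in BZA mouse 4 and 6.82 in CE+BZA mouse 1. Gm15568, Gm5639, Gm7869 and Gm7935 are processed pseudogenes, whose reads can belong to their parent genes. 1700067K01Rik at chr8:84001502-84004770 was -1.35, 0 and -1.03 in Veh, 0.43, 1.55 and 1.41 in the BZA mice and 0.072, 0.68 and 0.89 in the CE+BZA mice, and E2 mouse 5 at 0.34 exceeded CE+BZA mouse 1.

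The pathway and marker lists set the genes among their neighbours. The share of all table genes more than 1 above Veh was 14.6% with E2 and 22.6% with CE, and it was 22.3% with BZA and 24.6% with CE+BZA, where it took in all of the 102. Of the 12 genes of the integrated stress and unfolded protein responses in the table, 2, 4, 4 and 7 were more than 1 above Veh in E2, CE, BZA and CE+BZA, and Gdf15, Asns and Cebpb are among the 102. Trib3 and Chac1 of the same list were 1.18 and 1.39 above Veh in CE, and their BZA minus Veh differences were 0.59 and -0.26. Of the 9 clock genes 0, 4, 3 and 6 passed the same fold, with Per1 1.02 above Veh under CE, 1.18 under BZA and 1.80 under CE+BZA. Of the 9 Wnt genes 2, 2, 5 and 5 did, of the 12 ion channels 0, 3, 5 and 5, of the 10 TGF-beta and BMP genes 1, 5, 3 and 5, and of the 11 estrogen receptor targets 1, 7, 4 and 5. Of the 12 cell cycle genes 2, 5, 2 and 2 did, and Rrm2, a ribonucleotide reductase subunit, is the one among the 102. The list counts include genes of the 102, such as Wnt11, Sfrp5, Kcnk5 and Gm129. The thresholds place each of those past this fold in BZA and CE+BZA and keep it from passing in E2 and CE. Nothing is therefore read from the differences between these counts. The other 9 pathway lists and the 15 marker lists hold none of the 102 genes. Of 16 hepatocyte markers the table holds Pck1 alone, so the liver label could not be checked against a marker set in these values.

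CE+BZA and BZA were then set against each other, the contrast that asks whether conjugated estrogens alter what is seen with bazedoxifene. The thresholds asked both means to pass the same value above the same Veh mean. They set no upper bound, but they make a large difference between the 2 means less likely. The counts below are thus lowered by the choice of the genes, and nothing is read from them. The CE+BZA mean was the higher in 59 of the 102 genes and the BZA mean in 43, and the 2 means differed by more than 1 in 7 genes. Neither the split nor the count of 7 was made over the table. The median difference was 0.096, against 0.0065 over all genes of the table. By limma with Benjamini-Hochberg adjustment over the 2545 genes, 0 of the 102 genes passed a fold change above 2 at an FDR under 0.05, as did 0% of the table, and 0 of the 102 passed the same fold at an unadjusted p under 0.05, against 8.76% of the table. The median half-width of the 95% interval was 1.33, and the interval reached beyond 1 or -1 in 101 of the 102 genes, so for these a 2-fold difference in at least 1 direction lay within the interval. For S1pr5 the difference was -0.097 with a 95% interval of -1.07 to 0.88, and for Gdf15 it was 0.79 with an interval of -1.22 to 2.80.

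E2 and CE were compared in the same way, and here too the thresholds, which cap both means, used the values compared, so nothing is read from the counts. By limma, 0 of the 102 genes differed at an FDR under 0.05, against 0.0393% of the table, and 1 differed at an unadjusted p under 0.05, against 9.08%. That gene was Gm15347, in which E2 minus CE was -1.48 (SE 0.59), and all 3 E2 mice lay below all 3 CE mice. The interval reached beyond 1 or -1 in all 102 genes. Over the 102 genes the CE+BZA difference from Veh was below the sum of the CE and BZA differences in 75, with a median deviation of -0.43. Neither figure was tested or computed over the table. A low Veh mean, which the thresholds favour, lowers this deviation, and the cap on the CE difference works the other way. Nothing is read from it.

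The 15 mice did not weigh equally in the choice of the genes. The median over the 102 genes of the value minus the Veh mean was -0.045, 0.34 and -0.29 in Veh mice 1, 4 and 7. It was 0.12, 0.53 and 0.34 for the E2 mice and 0.94, -0.036 and 0.53 for the CE mice. It reached 1.23, 1.45 and 1.15 in the BZA mice and 1.15, 1.46 and 1.56 in the CE+BZA mice. The 6 mice given bazedoxifene were thus the 6 highest, as the thresholds favour, and CE mouse 3 came closest to them. That mouse also had the highest value of all 12 neutrophil markers in the table, with a mean of 5.39 against -0.88 to 1.12 in the other mice, and of 8 of the 11 erythroid markers, with a mean of 1.81 against -0.95 to 1.56, and their part in the values of the 102 genes was not tested. With ties counted for each mouse, Veh mouse 7 was at the lowest value of the 15 mice in 50 genes, Veh mouse 1 in 37 and Veh mouse 4 in 11. Where 1 mouse alone was lowest, it was Veh mouse 7 in 26 genes, Veh mouse 1 in 13 and Veh mouse 4 in 3. When Veh mouse 7 was left out, 43 of the 102 genes still met the thresholds, and 57 and 53 did without Veh mouse 1 or 4. Leaving out a mouse of the other groups kept 71 (CE mouse 6) to 99 (CE mouse 3).

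**Figure D5:**
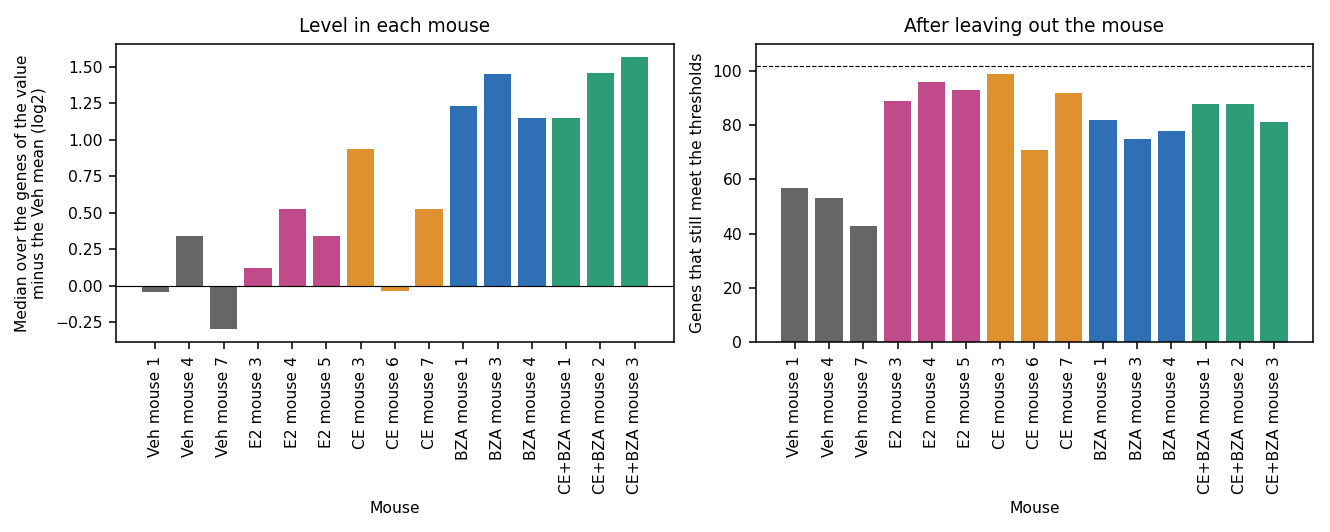
On the left, bars give for each mouse the median over the 102 genes of its value minus the Veh mean (log2), and on the right, the number of the 102 genes, dashed line, that still met the thresholds after that mouse was left out. The 6 BZA and CE+BZA bars stand at 1.15 or higher on the left, and the 3 Veh bars are the lowest on the right, at 43 to 57 genes.

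Low values limit several genes. In 32 of the 102 genes (31.4%, against 41.1% of the table) at least 2 mice shared the bottom value, and such mice have no order among themselves. In 9 genes more than 5 mice were at that value.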

How the data were processed

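RNA was measured by sequencing of polyadenylated liver RNA, in a stranded library, from 15 mice in 5 groups of 3. The authors made the deposited log2 values by trimming reads, aligning them with TopHat (version given as 0.5 in the submitters' processing notes) to mm10, quantifying genes in StrandNGS with partial reads included, and normalizing with DESeq. Each gene is centred on its median across mice. Base calls came from CASAVA 1.8.2. The processing notes also name hg19, in no stated role. The labels state 2 samples for each group, whereas 3 columns for each group were matched. All 2545 genes differed from Veh by more than 1 in at least 1 treatment mean, so shares of the table are not shares of all liver genes. Read depth is unknown, which bars counting intervals.

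The members and all gene lists were chosen with earlier results of these data known. Group means were set against the Veh mean, and the thresholds were applied in Python 3.11.15 with pandas 2.3.3, numpy 2.4.6 and matplotlib 3.10.9. CE+BZA against BZA and E2 against CE were tested in one fit of 5 group means over 2545 genes (limma 3.58.1 in R 4.3.3, two-sided, 10 residual degrees of freedom, fold change above 2 and Benjamini-Hochberg FDR under 0.05). The thresholds used the group means that enter both contrasts. On simulated data for CE+BZA against BZA with 200 of 2545 genes shifted, the fit recovered 0 at a shift of 1, 91 at 2 and 160 at 3. The shift of 1 (log2) equals the fold threshold of the call, which lowers the recovery there. Genes named with values were the 12 with the largest smaller difference, with at most 5 mice at the lowest value, the 12 with the widest gap between the 6 and the 9 mice, those on a list, the 3 on each side of the threshold and up to 4 per role. 1700067K01Rik, Gm15347, Gm15690, Aoc3, Sds, Sphk1, Trib3, Chac1, Per1 and the genes left out by name were added after their values were seen. Positions come from GENCODE and RefSeq for GRCm38, the build of mm10, and were found for 95 of the 102 genes. Of mouse pairs, 0 of 105 had identical values. Alternatives were other scalings, centring, thresholds, filters and fits, and leaving out each mouse. One of the 102 genes is not reported by name here.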

Additional observations from a re-analysis of the deposited data

How the results depend on the processing

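The number of genes that met the thresholds was 102, and it was 77 after quantile normalization (64 shared), 102 after centring each mouse (95 shared), 88 with group medians (37 shared), 131 at a threshold of 0.8 (67 shared), 60 at 1.2 (47 shared), 70 without genes with at least 2 mice at the lowest value, and 68 to 122 when 1 mouse was left out. The cause of these shifts was not tested, other than the thresholds and filters themselves. The count of genes with all 6 bazedoxifene-treated mice above the other 9 was 5, it was 4 or 5 under other scalings and filters, and it was 5 to 9 when 1 mouse was left out (9 without CE mouse 3, BZA mouse 1 or BZA mouse 4). The median difference between the 6 and the 9 mice, 1.05, ranged from 0.95 to 1.09 over the other settings and from 0.97 to 1.12 without 1 mouse. In an alternative chosen after seeing the data, the 32 genes with all 6 above the 3 Veh mice became 32 to 51 (51 without Veh mouse 4), and the 18 genes with direct differences above 1 became 10 to 26 (10 without BZA mouse 3). For 54 named genes, all 918 recomputed differences between the 6 and the 9 mice kept their sign and moved by less than the SD of the gene between mice. The thresholds favour that sign, and 1 mouse shifts a mean of 6 or 9 mice little, so nothing is read from this count. Only 5 of the 102 genes met the thresholds whichever single mouse was left out. By limma, in counts that the choice of the genes lowers, 0 of the 102 genes passed between CE+BZA and BZA or between E2 and CE under each scaling, filter, variance model and left-out mouse (0 to 0), and at an unadjusted p under 0.05 the counts were 0 and 1. With the replicate block the counts stayed at 0 and 0, and at an unadjusted p they were 0 and 8. No pairing by number was seen in the values. The deviations of 13 same-numbered pairs correlated at -0.049 to 0.098, and 2 of 12 mice correlated best with their own number. Deviations from means of 3 mice do not settle whether the numbers mark pairs. The largest median over all genes of a treatment minus Veh was 0.11 as deposited, 0.10 after centring and 0.036 after quantile normalization. Simulated 2-fold differences between CE+BZA and BZA were not recovered with 3 mice in a group, by a call that itself asks for a fold change above 2. The read depth of each mouse is unknown.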

Other observations

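The 10 genes that met the same thresholds but were left out by name included Tmem200b and Il12rb1, in which all 6 bazedoxifene-treated mice lay above all 9 others. Tmem200b, a transmembrane protein, was 2.70 above Veh in BZA and 3.02 above in CE+BZA, against 0.093 in E2 and 0.42 in CE. Its values were -0.51, -0.32 and -1.03 with Veh. They were 1.64, 3.27 and 1.34 with BZA, and the CE+BZA mice reached 2.07, 2.51 and 2.60. The gap of 0.77 between the lowest treated and the highest other mouse was wider than in any of the 102 genes. Il12rb1, a receptor subunit for interleukin 12 and interleukin 23, was 2.28 and 2.07 above Veh with a gap of 0.58.

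The others were C8a, a complement subunit, at 1.54 above Veh in BZA and 2.07 in CE+BZA, the zinc transporter Slc30a2 at 1.78 and 1.4, the matrix protein Fbln1 at 1.60 and 1.23, and the mitochondrial carriers Slc25a29 at 1.28 and 1.29 and Slc25a22 at 1.03 and 1.11. The chemokine Ccl21a was at 1.27 and 1.05, and the F-box proteins Fbxl16 and Fbxo2 were at 1.24 and 1.31 and at 1.15 and 1.05. These differences were chosen by the same thresholds and were not tested.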
